A study of Mus musculus with 4 samples.

Results

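The WNT pathway genes described here, most of them targets through which the pathway restrains or amplifies its own activity, were measured in mouse embryonic stem cells (mESCs) that carried wild-type or O-GlcNAc-deficient CTCF. The genes were Dkk1, Axin2, Sp5, Lef1, Tcf7, Nkd1, Rnf43, Znrf3, Notum and Ctnnb1, chosen by symbol, and all 10 were found among the 37620 genes of the count table. Dkk1, Axin2 and Sp5 had been singled out because they were lower in MUT_CTCF in these same libraries, so their differences between the lines are given here as a description, with no p-value.

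RNA-seq was performed on total RNA of 2 WT_CTCF and 2 MUT_CTCF libraries. CTCF is the zinc finger protein that anchors chromatin loops, and O-GlcNAc is a single sugar that the enzyme OGT adds to serine and threonine. By the study's methods, both lines descended from mESCs whose own Ctcf was tagged with an auxin-inducible degron and EGFP, and both carried a hygromycin-selected vector with either wild-type CTCF or CTCF mutated at T668, the modified threonine. Auxin was used to degrade the tagged CTCF for a fixed time given in the study's methods for the lines. Each line was 1 picked clone whose vector-borne CTCF resembled the endogenous level, so the mutation and the clone cannot be told apart. The time in auxin was not stated separately for the RNA samples, and the promoter of the vector was not given in the sources used here. Both lines grew on gelatin in medium with 15% serum and 1000 U/mL leukaemia inhibitory factor, without feeder cells being named.

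WNT proteins are secreted signals that bind Frizzled receptors and their LRP co-receptors. Without them, a destruction complex built on Axin and Apc marks beta-catenin for degradation. With them, beta-catenin accumulates, enters the nucleus and turns on genes with the DNA-binding factors of the TCF/LEF family. Many of those target genes encode brakes on the same pathway, such as the secreted antagonist Dkk1 and the scaffold Axin2, so their RNA is widely used as a readout of signalling. In mESCs, WNT signalling through beta-catenin supports self-renewal, in part by relieving repression by Tcf7l1.

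The 4 libraries held between 40524694 and 40977464 counted reads, and 16264 genes were abundant enough to be tested. Values are normalized counts, that is reads scaled to a common library size by the trimmed mean of M values (TMM), whose factors lay between 0.9942 and 1.006. Ctcf itself stood at 18302.3 and 18669.0 normalized counts in WT_CTCF and at 18789.9 and 19325.2 in MUT_CTCF (adjusted p = 0.499 in edgeR). Its count does not separate reads of the tagged gene from any of the vector. Gene counts cannot show the mutation, so they do not check the labels. The mESC factors Pou5f1 and Nanog were abundant in every library, at 30796.1 to 33171.1 and 57886.7 to 60104.2 normalized counts.

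The stretches just upstream of 6 members are shown because they hold the matches to the TCF/LEF or CTCF motif, or, for Dkk1, because this gene differed most between the lines of those chosen for a lower level. Each run gives the 250 bases before the outermost annotated protein-coding start, in mm9 and in the direction of the gene. Capitals mark CTTTGA, the core bound by TCF/LEF factors, and in Axin2 a loose form of the CTCF core. Only its letters CCA, AG and GGC were required. The 2 bases in each gap were left free, so a match says nothing on how well they fit the motif. Both strands were searched.
Dkk1, chr19:30624156-30624405, minus strand: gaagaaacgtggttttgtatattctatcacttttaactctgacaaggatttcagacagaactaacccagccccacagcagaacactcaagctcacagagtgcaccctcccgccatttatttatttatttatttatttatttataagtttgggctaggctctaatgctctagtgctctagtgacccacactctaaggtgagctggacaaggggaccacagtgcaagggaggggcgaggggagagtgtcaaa
Axin2, chr11:108781413-108781662, plus strand: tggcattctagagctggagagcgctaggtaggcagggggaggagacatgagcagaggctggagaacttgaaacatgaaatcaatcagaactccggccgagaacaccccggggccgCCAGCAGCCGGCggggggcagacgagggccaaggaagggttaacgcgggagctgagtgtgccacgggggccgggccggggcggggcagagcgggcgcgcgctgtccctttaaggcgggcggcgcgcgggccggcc
Sp5, chr2:70312730-70312979, plus strand: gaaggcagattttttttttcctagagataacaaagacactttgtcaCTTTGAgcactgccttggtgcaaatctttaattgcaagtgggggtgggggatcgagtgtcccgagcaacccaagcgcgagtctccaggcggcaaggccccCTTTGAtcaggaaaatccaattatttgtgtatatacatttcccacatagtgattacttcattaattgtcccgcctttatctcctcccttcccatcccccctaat
Notum, chr11:120522490-120522739, minus strand: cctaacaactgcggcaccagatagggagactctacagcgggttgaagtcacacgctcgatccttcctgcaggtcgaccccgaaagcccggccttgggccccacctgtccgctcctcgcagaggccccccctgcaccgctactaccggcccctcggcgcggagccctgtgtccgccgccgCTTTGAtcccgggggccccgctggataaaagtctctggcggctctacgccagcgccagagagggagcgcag
Tcf7, chr11:52096682-52096931, minus strand: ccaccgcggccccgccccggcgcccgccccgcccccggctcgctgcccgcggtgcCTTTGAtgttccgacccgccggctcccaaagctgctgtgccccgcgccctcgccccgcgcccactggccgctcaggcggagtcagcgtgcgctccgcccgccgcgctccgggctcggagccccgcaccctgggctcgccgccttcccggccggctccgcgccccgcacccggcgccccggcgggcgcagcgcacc
Nkd1, chr8:91044993-91045242, plus strand: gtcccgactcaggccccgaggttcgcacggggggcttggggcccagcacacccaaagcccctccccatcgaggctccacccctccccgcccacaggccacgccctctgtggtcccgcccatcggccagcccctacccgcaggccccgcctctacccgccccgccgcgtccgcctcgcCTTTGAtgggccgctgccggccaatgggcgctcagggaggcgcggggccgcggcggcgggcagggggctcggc

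CTTTGA was found in these 250 bases in 4 of the 10 members (Sp5, Notum, Tcf7 and Nkd1), against 13.3% of 22335 promoters of the same length. In all 4 members a match was followed by T, giving the longer form CTTTGAT, which contains the shorter one and was present in 3.0% of all promoters. Sp5 held 2 matches, starting 204 and 104 bases before the start, of which only the nearer had the longer form. The matches of Notum and Nkd1 lay close to the start, at 71 and 73 bases, and that of Tcf7 at 195 bases. Dkk1 had none in this window, while its 1000 bases upstream held 3, starting 738, 682 and 334 bases before the start. At that length 6 of 10 members and 11166 of 22335 promoters held CTTTGA, and 5 of 10 against 14.1% held CTTTGAT. The CTCF core in this loose form was found in Axin2 alone among the members, 135 to 124 bases before the start, and in 2.16% of all promoters of 250 bases. GC content of the printed stretches ranged from 44.8% in Dkk1 and 46.0% in Sp5 to 83.6% in Tcf7, around a median of 54.4% over all promoters. These matches describe letters and carry no information on whether a factor was bound.

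**Figure D1:**
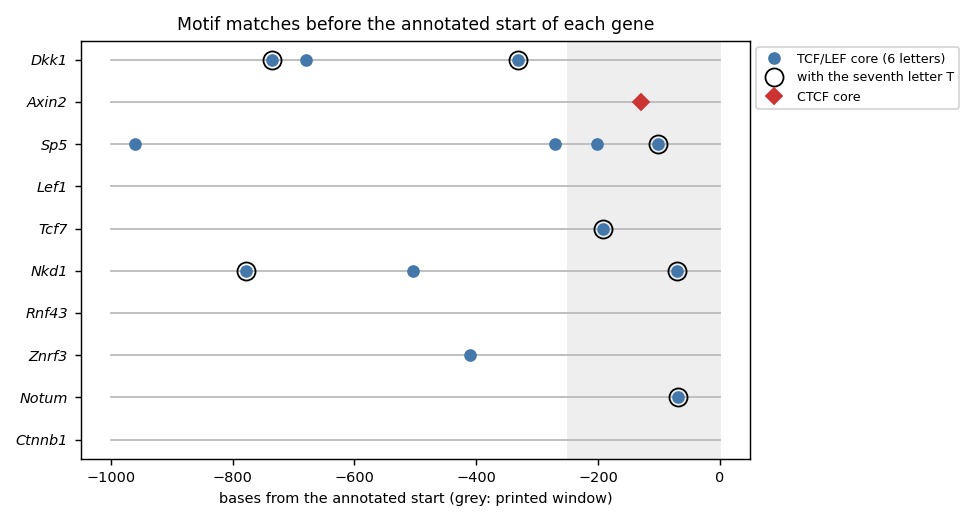
Matches to the TCF/LEF core (CTTTGA and its longer form CTTTGAT) and to the CTCF core in the 1000 bases before the annotated start of each member, drawn by distance from the start in bases, with rings around the longer form, a diamond for CTCF and grey for the printed 250 bases. Sp5, Notum, Tcf7 and Nkd1 have a match within 250 bases, and the 3 matches of Dkk1 lie farther away.

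The members spanned a wide range of levels. Compared per length, in RPKM (reads divided by the gene's merged exon length and by the TMM-scaled library size), Ctnnb1, which encodes beta-catenin itself, was the most abundant member, with a mean level of 187.7 over the 4 libraries. Tcf7, a TCF/LEF factor, followed at 49.75, then Sp5 at 25.84 and Axin2 at 17.74, all above the upper quartile of tested genes (15.4). Notum (9.451) and Znrf3 (5.512) lay above the median of 3.92. Dkk1 (1.919) and Nkd1 (1.196) lay below the median, and Rnf43 (0.384) and Lef1 (0.3505) below the lower quartile of 0.746. Each member's 4 libraries lay apart from those of its neighbour in this order, except for Rnf43 and Lef1, whose ranges overlapped.

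**Figure D2:**
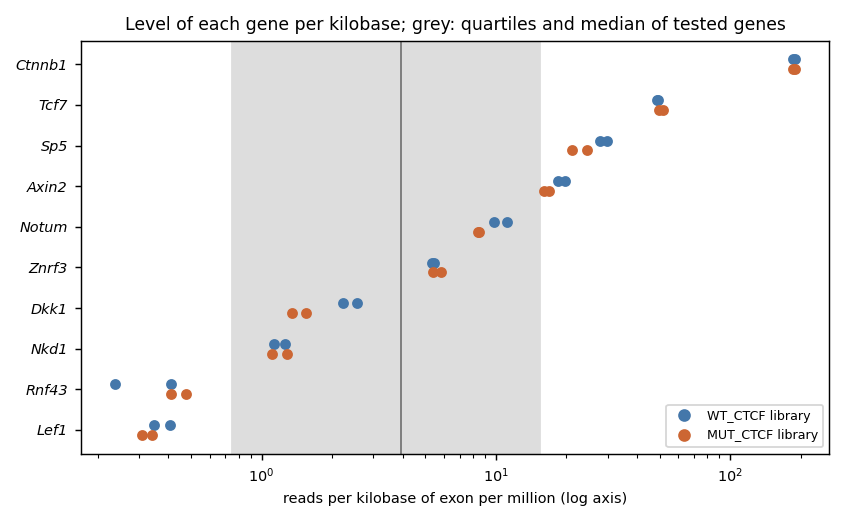
Level of each member in RPKM on a log axis, 1 point per library, with WT_CTCF in blue and MUT_CTCF in orange. The grey band spans the quartiles of tested genes and the line its median. Ctnnb1 stands highest near 188, and Rnf43 and Lef1 overlap at the low end.

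Among the secreted antagonists, Dkk1, which binds the LRP co-receptors and keeps WNT from engaging them, showed the widest gap of the 3 genes chosen for a lower level. Dkk1 (chr19:30620353-30624155, minus strand) had 220.4 and 252.6 normalized counts in WT_CTCF and 153.7 and 133.6 in MUT_CTCF. Both MUT_CTCF libraries lay below both WT_CTCF libraries, with means of 144 ± 14.2 and 237 ± 22.8 (SD, n = 2 each), a log2 fold change of -0.72 with a standard error (SE) of 0.187 and a ratio of 0.608. In bulk RNA, fewer cells transcribing a gene and less RNA per cell cannot be told apart, and this holds for every member.

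Notum, a secreted enzyme that removes the lipid WNT needs for receptor binding, was not among the genes chosen for a lower level and was tested. The members as a group were, however, chosen with earlier results of these data known. Notum (chr11:120515102-120522489, minus strand) read 1093.8 and 961.3 normalized counts in WT_CTCF and 827.8 and 832.0 in MUT_CTCF. The MUT_CTCF libraries were nearly equal and both lay below the WT_CTCF libraries. Notum fell by 0.31 on the log2 scale (SE 0.0891, ratio 0.808, adjusted p = 0.0386, edgeR's quasi-likelihood test). The call was close to the threshold, since the adjusted p ranged from 0.0176 to 0.48 over 11 alternatives and was 0.48 without WT_CTCF replicate 1, where the log2 fold change was -0.21. Notum also shares 708 of its 2408 exon bases with 4732444A12Rik on the other strand (189 and 187 reads in MUT_CTCF, 207 and 227 in WT_CTCF), and 210 with Gm11768 (42 to 77 reads), and the strand setting of the counting was not given, so the share of reads that belongs to Notum is uncertain.

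Axin2, the scaffold of the destruction complex and one of the most direct readouts of beta-catenin activity, was lower in MUT_CTCF by a smaller ratio. Axin2 (chr11:108781663-108812097, plus strand) had 4121.6 and 4449.5 normalized counts in WT_CTCF and 3601.6 and 3774.0 in MUT_CTCF. The lines did not overlap, and the means were 4285.5 ± 232 and 3687.8 ± 122 (SD, n = 2 each), a log2 fold change of -0.22 (SE 0.0481) and a ratio of 0.861. Its overlapping antisense gene Gm11670 had 8 to 13 reads in each library.

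Nkd1, which binds Dishevelled and dampens the signal inside the cell, did not separate the lines. Nkd1 (chr8:91045243-91118786, plus strand) read 228.4 and 206.5 normalized counts in WT_CTCF and 201.2 and 234.1 in MUT_CTCF. The libraries of the lines interleaved, and the log2 fold change was 0.0015 with a 95% interval from -0.35 to 0.35 (adjusted p = 0.998), which leaves room for differences as large as that of Sp5 or Axin2.

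Rnf43 and Znrf3 are membrane ubiquitin ligases that remove Frizzled from the cell surface, and R-spondins counteract them. Rnf43 (chr11:87476224-87549041, plus strand) had 63.1 and 110.3 normalized counts in WT_CTCF and 110.0 and 127.6 in MUT_CTCF. One WT_CTCF library was low and the other lay within the MUT_CTCF range. The log2 fold change was 0.45 (SE 0.269, adjusted p = 0.447) and rested on that library, with 0.11 without WT_CTCF replicate 1 and 0.91 without WT_CTCF replicate 2. Znrf3 (chr11:5176327-5344850, minus strand) read 1724.8 and 1762.2 normalized counts in WT_CTCF and 1735.8 and 1879.0 in MUT_CTCF. These overlapped, and the log2 fold change was 0.05 with a 95% interval from -0.081 to 0.18 (adjusted p = 0.797).

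Among the transcription factors, Sp5, a zinc finger protein that is induced by beta-catenin and represses other WNT targets, was the other gene chosen for a lower level. Sp5 (chr2:70312980-70315786, plus strand) had 2558.1 and 2388.6 normalized counts in WT_CTCF and 1819.1 and 2090.0 in MUT_CTCF. The lines did not overlap, although the MUT_CTCF libraries differed from each other by about as much as the nearest libraries of the 2 lines. The means were 2473.4 ± 120 and 1954.5 ± 192 (SD, n = 2 each), a log2 fold change of -0.34 (SE 0.0632) and a ratio of 0.79.

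Lef1 and Tcf7 encode partners of beta-catenin on DNA and are themselves WNT targets. Lef1 (chr3:130813389-130927274, plus strand) was scarce, at 122.2 and 143.3 normalized counts in WT_CTCF and 109.0 and 120.6 in MUT_CTCF. The MUT_CTCF libraries lay below the WT_CTCF libraries, the nearest pair being 122.2 and 120.6, and the log2 fold change of -0.21 (SE 0.235, adjusted p = 0.758) was smaller than its error. Tcf7 (chr11:52065873-52096681, minus strand) was slightly higher in both MUT_CTCF libraries, with 5544.9 and 5586.2 normalized counts in WT_CTCF and 5867.8 and 5658.0 in MUT_CTCF. The lines did not overlap, and the log2 fold change was 0.05 (SE 0.041, adjusted p = 0.631), with a 95% interval from -0.032 to 0.13.

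Ctnnb1 (chr9:120838334-120869625, plus strand), whose protein is controlled mainly by degradation, had 39520.3 and 38782.4 normalized counts in WT_CTCF and 38614.9 and 39272.4 in MUT_CTCF. The libraries overlapped, and the log2 fold change was -0.0076 (SE 0.0238, adjusted p = 0.931) with a 95% interval from -0.055 to 0.04, the narrowest among the members. Its exons share 240 bases with Ulk4 on the other strand, which had 123 to 173 reads. RNA counts say nothing on the amount or location of beta-catenin protein.

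**Figure D3:**
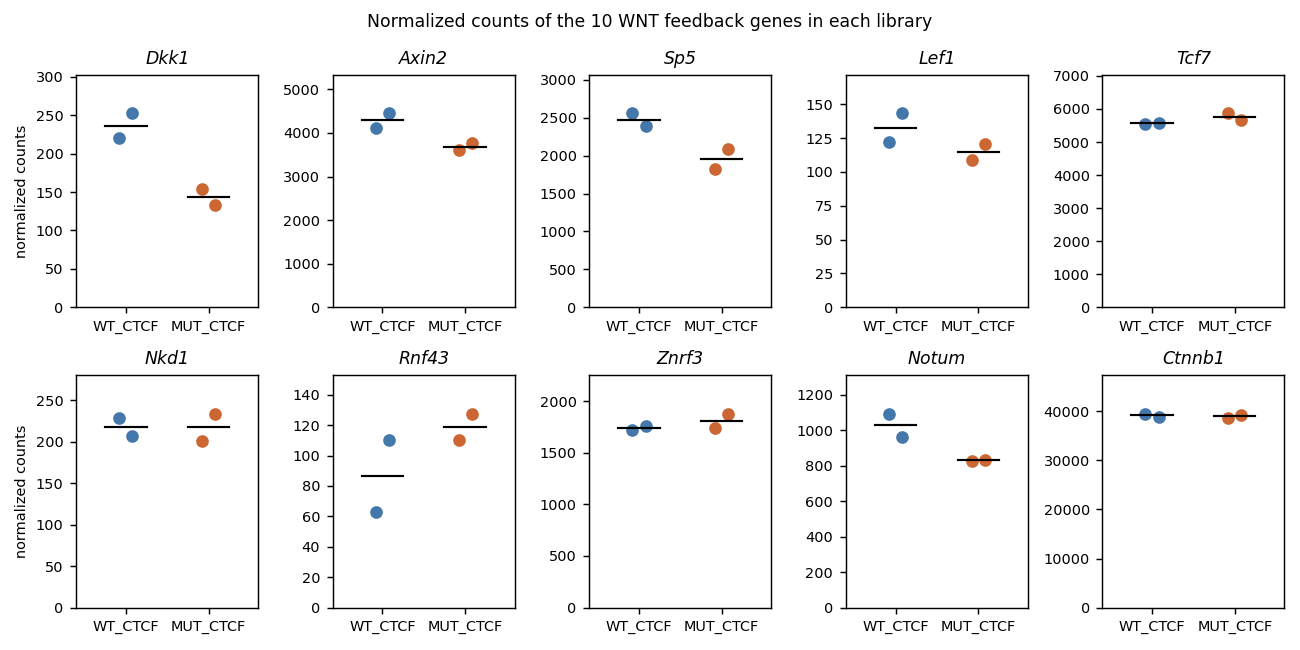
Normalized counts of each of the 10 members, 1 point per library and a line at the mean of each line of cells, each panel on its own axis from 0. Dkk1, Axin2, Sp5, Notum and Lef1 have both MUT_CTCF libraries below both WT_CTCF libraries, Tcf7 has both above, and the lines overlap in the other members.

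Of the 7 members not chosen for a lower level, 1 (Notum) was called lower in MUT_CTCF at an adjusted p under 0.05, where 1.61% of all tested genes were. None was called higher, against 1.56% of all tested genes, and none reached an unadjusted p under 0.05 in that direction in either edgeR or DESeq2. Dkk1, Axin2 and Sp5 also passed this threshold, which brings the count to 4 of 10 members. These 3 genes were chosen on this difference in these same libraries. Nothing is therefore read from their direction, from their passing or from counts of members that include them. In Lef1 and Notum, 2 of those 7 members, both MUT_CTCF libraries lay below both WT_CTCF libraries, a share close to the 22.4% of all tested genes with that arrangement. In 1 of the 7, Tcf7, both lay above, as in 22.3% of tested genes. The study's methods used another limit, a change of more than 2-fold together with p under 0.05 before adjustment, which no member met in either direction, against 0.357% of tested genes lower and 0.947% higher. Leaving out either MUT_CTCF replicate 1 or MUT_CTCF replicate 2 left no member called, with 4 lower at an unadjusted p under 0.05 in both fits, and leaving out WT_CTCF replicate 2 left 2. Over all tested genes, either of those MUT_CTCF omissions left 6 genes called higher and 0 lower in edgeR, with 921 and 944 lower at an unadjusted p under 0.05.

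**Figure D4:**
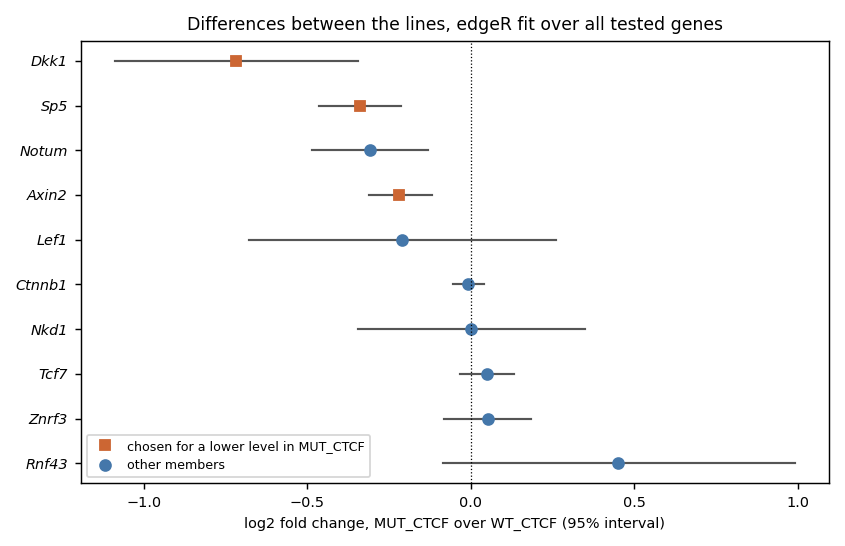
Log2 fold change of MUT_CTCF over WT_CTCF with its 95% interval for each member, from the fit over 16264 genes. Squares mark Dkk1, Sp5 and Axin2, which were chosen for a lower level, so their intervals are a description and no test. Circles mark the other members, of which only Notum has an interval below 0.

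Away from the members, 112 further genes of the pathway were listed by role, of which 111 were found and 96 were tested. Of these, 4 were called higher and 3 lower in MUT_CTCF, or 7.29% of those tested, against 3.17% of all tested genes in either direction. Since the genes were listed with earlier results of these data known, nothing is read from the difference in shares. The lists are described by their counts and medians beside the median log2 fold change of 0.0035 over all tested genes. Wnt7b, Sfrp2, Gsk3a, Csnk1d, Ctnnbip1 and Ccnd1 share exon bases with other genes, which makes their counts uncertain. For reading counts at an unadjusted p under 0.05 in edgeR, 1238 higher and 1245 lower genes of all 16264 tested met that limit.

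No gene for a ligand or its release was called. Of 21 WNT genes and genes of WNT secretion, 12 were tested and none passed in either direction in edgeR. At an unadjusted p under 0.05, 1 was higher and none lower in edgeR, and none passed in DESeq2. All 12 had fewer reads than Myc, described below, which got no adjusted p from DESeq2, so DESeq2 could call none of them. The median log2 fold change of the list was 0.15. That median turned to -0.053 without WT_CTCF replicate 2 and -0.11 without MUT_CTCF replicate 2. Wnt7b and Wnt2b had log2 fold changes of 0.67 (SE 0.332, adjusted p = 0.324) and 0.79 (SE 0.475, adjusted p = 0.459), and Wnt5b of -0.22 (adjusted p = 0.599). Porcn, which attaches the lipid to WNT proteins, and Wls, which carries them to the surface, had log2 fold changes of -0.069 (adjusted p = 0.877) and -0.1 (adjusted p = 0.81).

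At the cell surface, 1 of 18 tested receptor genes was called, with a list median of 0.068 (0.106 without WT_CTCF replicate 1). Fzd7, a Frizzled receptor, rose from 1064.7 and 1062.5 normalized counts in WT_CTCF to 1365.1 and 1371.5 in MUT_CTCF, a log2 fold change of 0.36 (SE 0.0773, adjusted p = 0.00235). Replicates of Fzd7 were nearly equal within each line, and the call was lost when either MUT_CTCF replicate 1 (log2 fold change 0.37, adjusted p = 0.31) or MUT_CTCF replicate 2 (log2 fold change 0.36, adjusted p = 0.293) was left out. Fzd5, the receptor with the highest level per length, had a log2 fold change of -0.094 (adjusted p = 0.113), Fzd2 of 0.28 (adjusted p = 0.135) and the co-receptor Lrp5 of 0.11 (adjusted p = 0.251).

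Of 17 other extracellular inhibitors found, 12 were tested and 1 was called higher, with a list median of 0.09 (0.0185 without WT_CTCF replicate 1) and Cer1 at 0 in all libraries. Dkk3, a relative of Dkk1 that is not established as an LRP antagonist, had 320.5 and 301.7 normalized counts in WT_CTCF and 400.5 and 473.3 in MUT_CTCF. Dkk3 rose by a log2 fold change of 0.49 (SE 0.135, adjusted p = 0.0285), opposite in sign to Dkk1, and lost the call when any of the 4 libraries was left out (adjusted p from 0.0842 without WT_CTCF replicate 1 to 0.487 without MUT_CTCF replicate 2). Sfrp1, a secreted protein that binds WNT and the most abundant of this list per length, had a log2 fold change of 0.049 (adjusted p = 0.542), Sfrp2 of -0.0081 (adjusted p = 0.974), Shisa2 of 0.21 (adjusted p = 0.348) and Draxin of 0.33 (adjusted p = 0.386). Dkk4, another LRP antagonist and reported WNT target, had too few reads to be tested, with 11 and 6 in WT_CTCF and 0 in both MUT_CTCF libraries, where a count of 0 allows up to 3 reads. It was singled out after its values were seen.

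Inside the cell, none of the 18 genes of beta-catenin destruction and signal relay was called in either direction, in edgeR or DESeq2, with 2 higher and none lower at an unadjusted p under 0.05 in edgeR, and their median was 0.0062 (0.0107 to 0.022 with any 1 library left out). The kinase gene Csnk1a1 had a log2 fold change of 0.071 (adjusted p = 0.244), Btrc, the ubiquitin ligase subunit that recognises phosphorylated beta-catenin, of 0.12 (adjusted p = 0.295) and the Axin partner Amer1 of 0.18 (adjusted p = 0.361). The kinase genes Gsk3a and Csnk1d, the most abundant of the list per length, lay at -0.011 (adjusted p = 0.951) and -0.0048 (adjusted p = 0.97).

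In the nucleus, 1 of 16 partners of beta-catenin and TCF was called, and the list median was 0.003 (-0.0225 or 0.0169 on omitting WT_CTCF replicate 1 or 2, and 0.0178 or -0.0207 on omitting MUT_CTCF replicate 1 or 2). Tle3, a Groucho co-repressor that TCF factors recruit in the absence of beta-catenin, rose from 6286.1 and 6216.7 to 6823.4 and 7013.5 normalized counts, a log2 fold change of 0.15 (SE 0.0386, adjusted p = 0.0204). The call on Tle3 was lost when any of the 4 libraries was left out, with adjusted p from 0.131 without WT_CTCF replicate 1 to 0.384 without MUT_CTCF replicate 2. Tcf7l2 had a log2 fold change of -0.28 (adjusted p = 0.179), Ctnnbip1, an inhibitor that keeps beta-catenin off TCF, of 0.17 (adjusted p = 0.376), and the co-repressor genes Aes and Ctbp1 of 0.0019 (adjusted p = 0.985) and -0.024 (adjusted p = 0.851).

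Other genes reported as beta-catenin targets went both ways, with 3 of 20 called lower, 1 higher and a median of -0.012. Over all tested genes, 1.61% were called lower and 1.56% higher. The list was written with earlier results of these data known, so nothing is read from the difference in shares. Omitting WT_CTCF replicate 1 or 2 gave a median of -0.0671 or -0.0205, and omitting MUT_CTCF replicate 1 or 2 gave -0.0918 or 0.0134. The caudal homeobox factor Cdx2 fell from 274.4 and 298.7 to 131.8 and 159.8 normalized counts (log2 fold change -0.97, SE 0.177, adjusted p = 0.000227). Its relative Cdx1 fell from 4400.0 and 4111.7 to 3441.0 and 3690.6 (log2 fold change -0.26, SE 0.0487, adjusted p = 0.000485). Myc, a driver of growth and of mESC self-renewal, fell from 780.3 and 841.0 to 651.3 and 571.7 (log2 fold change -0.41, SE 0.101, adjusted p = 0.0115). In each of these 3 genes the lines did not overlap. Cdx2 kept its call without either WT_CTCF library, Cdx1 without WT_CTCF replicate 2 (adjusted p = 0.0752 without WT_CTCF replicate 1) and Myc without WT_CTCF replicate 1 (adjusted p = 0.144 without WT_CTCF replicate 2), and all 3 lost it without either MUT_CTCF library, with adjusted p from 0.225 to 0.428. Tnfrsf19, a receptor of the tumour necrosis factor family, rose from 1293.1 and 1203.8 to 1462.2 and 1548.4 normalized counts (log2 fold change 0.27, SE 0.0741, adjusted p = 0.028), was named after its value was seen and lost the call when any of the 4 libraries was left out. Ccnd1, the G1 cyclin, had a log2 fold change of 0.091 (adjusted p = 0.15).

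**Figure D5:**
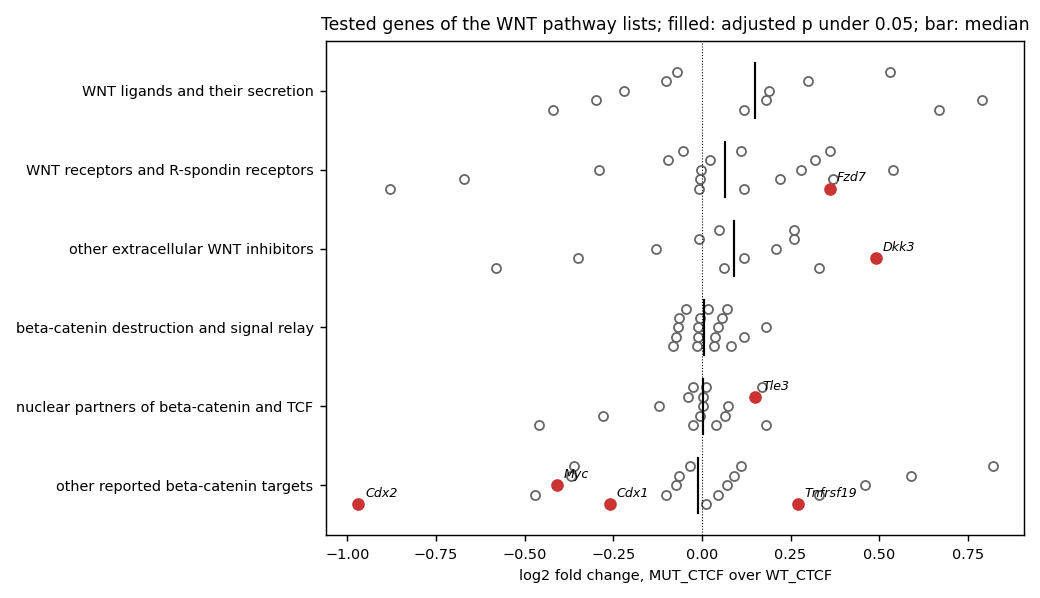
Log2 fold change of MUT_CTCF over WT_CTCF for each tested gene of the 6 pathway lists, by list, with genes called at an adjusted p under 0.05 filled and labelled and a bar at each list's median. Labelled genes are Fzd7, Dkk3, Tle3 and Tnfrsf19 above 0 and Cdx2, Cdx1 and Myc below 0, and the destruction and relay genes stay within -0.081 and 0.18.

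Markers of other cell types were read because several members are expressed in differentiating cells. Mesendoderm markers, where WNT targets are prominent, summed to 23.86 and 25.37 CPM (counts scaled to library size) in WT_CTCF and 23.71 and 22.21 in MUT_CTCF. None of 8 tested was called in either direction in edgeR, nor reached an unadjusted p under 0.05 in edgeR or DESeq2. All had fewer reads than Myc, which got no adjusted p from DESeq2, so DESeq2 could call none of them. Trophectoderm markers summed to 140.7 to 149.2 CPM in WT_CTCF and 138.7 to 140.7 in MUT_CTCF. Most of this sum was Tfap2c, which was not called (log2 fold change 0.051, adjusted p = 0.694 in edgeR). In edgeR 2 of 8 trophectoderm markers were called lower, Cdx2 and Krt8, against 1.61% of all tested genes lower and 1.56% higher. Cdx2 is also in the list of targets and had no adjusted p in DESeq2. Without either WT_CTCF library 1 of these 2 calls was left, and none was left without either MUT_CTCF library or in DESeq2, each with 2 lower at an unadjusted p under 0.05. Ectoderm markers summed to 65.81 and 65.86 CPM in WT_CTCF and 71.35 and 73.21 in MUT_CTCF, primitive endoderm markers to 294.3 to 299.3 and 304.7 to 307.5, and fibroblast markers to 45.65 to 47.02 and 46.62 to 52.23. Nes carried most of the ectoderm sum, and Lama1, Col4a1 and Lamb1 most of the primitive endoderm sum, so the sums hide scarcer markers. None was called among 4, 8 and 5 tested in edgeR. DESeq2 called none either, but gave genes with few reads no adjusted p. At an unadjusted p under 0.05 in edgeR, 2 ectoderm and 3 primitive endoderm markers were higher and 1 fibroblast marker was lower. These were Otx2 and Zic1 (log2 fold changes 0.55 and 2.12), Gata6, Sox17 and Lamb1 (0.95, 0.75 and 0.18) and Col3a1 (-1.52). The largest of these changes rested on few reads. Zic1 had 2 and 4 reads in WT_CTCF and 17 and 10 in MUT_CTCF (SE 0.947). Col3a1 had 26 and 23 in WT_CTCF and 12 and 5 in MUT_CTCF (SE 0.705). Fgf5 of the ectoderm list and Lum of the fibroblast list were at 0 in all libraries. The part of these cells in the members' values was not tested. Of 12 mESC identity genes, Sox2 was called higher (log2 fold change 0.1, adjusted p = 0.0358) and Dppa5a and Utf1 lower (-0.1 and -0.21, adjusted p = 0.0157 and 0.00499). DESeq2 gave the same counts, the edgeR exact test called 0 higher (2 at an unadjusted p under 0.05) and 1 lower, leaving out WT_CTCF replicate 2 left 0 higher (2 at an unadjusted p under 0.05) and 1 lower, and leaving out WT_CTCF replicate 1 or either MUT_CTCF library left none in edgeR (1 or 2 higher and 1 or 3 lower at an unadjusted p under 0.05).

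The tested genes most like the 3 chosen members were found by the distance between their centred log2 CPM profiles over the 4 libraries, as a root mean square, among 12908 genes with a mean of at least 50 normalized counts. For Dkk1 these were P2rx2 (distance 0.013, log2 fold change -0.72), an ATP-gated ion channel, 4933407K13Rik (0.0551, -0.69) and Spry4 (0.0641, -0.65), a feedback inhibitor of receptor tyrosine kinase signalling. For Axin2 they included 2010111I01Rik (0.0102, -0.2) and Ahsa2 (0.012, -0.21), both of which share exon bases with other genes. For Sp5 they were Nbea (0.016, -0.35), Gm10762 (0.0234, -0.31), which shares exon bases with Zc3h6, and the LIM protein gene Fhl3 (0.0307, -0.37). The members themselves were left out of this search, so it does not show how they resembled each other. None of the genes found belongs to the pathway lists. The distances are a description of 4 libraries.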

How the data were processed

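RNA-seq reads were trimmed by the authors with Trim Galore 0.4.4 and aligned to mm9 with STAR, and uniquely mapped reads were counted per gene with HTSeq 0.9.1 (names and versions from the submitters' processing notes and the study's methods). The strand setting was not given in the sources used here. The deposited table holds raw counts per Ensembl gene for 4 libraries of 40524694 to 40977464 reads, where a count of 0 allows 3 reads, or 0.0732 to 0.074 CPM, a limit for counting error only. A further deposited table of the authors' own comparison (log fold change, average expression, p and FDR) was not used.

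Symbols came from GENCODE M1 on mm9, which named 37205 of 37620 identifiers, with synonyms from RefSeq tables. Counts were fitted with edgeR 4.0.16 in R 4.3.3 (filterByExpr with a minimum count of 10, TMM factors, glmQLFit and glmQLFTest on the line alone, Benjamini-Hochberg adjustment over 16264 genes, calls at an adjusted p under 0.05). Normalized counts were scaled to the mean library size, and RPKM used merged exon lengths. The replicates were stated to be biological, without separate cultures being named, so p-values measure the spread between these libraries. Promoters and motifs were read from the mm9 sequence by script. Alternatives were DESeq2 1.42.0, the edgeR exact test, other scalings and filters, a replicate block, each library left out and the study's call rule.

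The members and lists were chosen with earlier results of these data known. Named are all members, in each pathway list the 3 tested genes with the smallest p and the 2 with the highest level per length, the 3 genes most like each of Dkk1, Axin2 and Sp5, and Ctcf. One of the genes most like Axin2 is not reported here. Tnfrsf19, Dkk4 and the marker genes named were added after their values were seen. Symbols not matched, such as Tiki1 and Sox1, were not analysed here.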

Additional observations from a re-analysis of the deposited data

How the results depend on the processing

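With 2 libraries a line, calls rested on few samples. Genes called higher numbered 253, and 129 with DESeq2, 26 with no filter on low counts, 154 at an unadjusted p with a fold change above 2, and 6 to 142 with 1 library left out. Genes called lower numbered 262, and 152 with library size scaling only, 3 with no filter, 58 with the fold change rule and 0 to 102 with 1 library left out. The higher calls were 49.1% of all calls, 63.1% with library size scaling only, 41.2% with DESeq2, 89.7% of 29 calls with no filter and at least 58.2% with any 1 library left out. Members called lower numbered 4, and 2 with DESeq2, 0 with no filter (4 at an unadjusted p under 0.05), 0 with the fold change rule and 0 to 3 with 1 library left out. Other pathway genes called higher numbered 4, and 2 with DESeq2, 0 with no filter and 0 to 1 with 1 library left out. Those called lower numbered 3, and 1 with DESeq2, which gave no adjusted p for Cdx2, Dkk3 and Myc, 0 with no filter and 0 to 2 with 1 library left out. Of the 4 members called lower, Dkk1, Axin2 and Sp5 were chosen for a lower level in these same libraries. Nothing is read from their calls or from counts of members that include them. Notum, the only other member called, lost its call with DESeq2 (adjusted p = 0.0938), library size scaling only (0.0626) and no filter (0.321). DESeq2 had 4 members lower at an unadjusted p under 0.05. It gave no adjusted p for Lef1, Nkd1 and Rnf43, and Dkk1 had fewer reads than Nkd1 over all libraries together. The missing DESeq2 call of Dkk1 is therefore not read as a failed test. Signs turned for Nkd1 (-6.58e-05 with the replicate block, -0.11 to 0.11 with 1 library left out), Znrf3 (-0.00763 to 0.11 with 1 library left out) and Ctnnb1 (0.00473 with library size scaling only, -0.0212 to 0.00603 with 1 library left out), none of them called in any fit. The causes were not tested. Same-numbered libraries did not deviate together (r = -0.0192 across genes, 2 pairs), so the numbers were not read as pairs, and the replicate block gave 326 higher and 372 lower calls and the same count of 4 members. Leaving out 1 library leaves a lone library assumed to vary like the other line.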
